A study of Mus musculus with 16 samples.

Results

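The genes described here encode the chaperones and co-chaperones of the cytosol and the mitochondria, together with 2 heat-shock factors, in mouse embryonic stem (ES) cells. They were chosen by symbol: names beginning Hspa, Hspb, Hspd, Hspe or Hsph, Dnaja, Dnajb or Dnajc, Cct or Bag and followed by a digit, with Hsp90aa1, Hsp90ab1, Tcp1, Hsf1 and Hsf2. The endoplasmic reticulum genes Hspa5, Dnajb9, Dnajb11 and Dnajc3 were left out, as were names marked as pseudogenes. This gave 85 genes of 24394 gene names in 2 of the tables and of 24320 in the Pml table. They comprise 12 genes of the Hsp70 and Hsp110 class, 2 of the Hsp90 class, 8 small heat-shock genes, 3 DNAJA, 11 DNAJB and 23 DNAJC genes, 10 TRiC/CCT genes, 6 BAG genes, 8 mitochondrial genes and the 2 heat-shock factors. The symbol rule also kept genes whose products sit elsewhere, such as Dnajc10 and Hspa13 of the endoplasmic reticulum, and Hspb11, whose product is an intraflagellar transport protein.

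RNA-seq libraries were made from cells labelled E14Tg2a.IV, kept feeder-free on gelatin with LIF and serum. A second line, CCE, appears in the culture description with no sample tied to it. The 16 libraries form 8 groups of 2. Sodium arsenite (200 µM, 2 h), an oxidative and proteotoxic stressor, was given to wild-type cells and compared with untreated wild-type cells. Cells labelled knockout for Pml, which encodes the scaffold protein of PML nuclear bodies, were compared with wild-type cells, both untreated. Trim33-knockout and wild-type cells were each given either activin A (50 ng/ml, 2 h), which activates SMAD2 and SMAD3, or SB431542 (10 µM, 2 h), which inhibits the type I receptors of that pathway. The labels do not say how the knockouts were made or how many clones were used. Nothing states that the 2 libraries of a group had separate cultures as their source; a p-value here reflects the spread of these libraries alone, and that spread may be technical.

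Chaperones bind unfolded or partly folded proteins and release them so that they can fold, be moved or be degraded. Hsp70 proteins do this in cycles of ATP use: J-domain proteins (the DNAJ families) bring the client and start ATP hydrolysis, and the Hsp110 and BAG proteins exchange the nucleotide. Hsp90 acts late on kinases and receptors, the ring-shaped TRiC/CCT complex folds actin and tubulin, and small heat-shock proteins hold unfolded clients without using ATP. In mitochondria, mortalin (Hspa9) pulls proteins in, and the Hsp60 barrel (Hspd1) with its lid Hsp10 (Hspe1) folds them. HSF1 is the transcription factor that drives the inducible members of these families under heat or proteotoxic stress, through heat-shock elements made of alternating GAA and TTC units.

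The labels were checked first. Pml stood at 32.0 and 33.5 FPKM in the libraries labelled Pml knockout, against 49.8 and 45.1 FPKM in wild type, so it was lower but still present. With activin A, Trim33 stood at 2.53 and 2.79 RPKM under the knockout label, against 20.1 and 23.5 RPKM under the wild-type label. With SB431542 it went against the label in every library: 18.3 and 24.6 RPKM in those labelled knockout, and 2.94 and 2.44 RPKM in those labelled wild type. Eif2s3y, a Y-linked gene, followed Trim33: it was at 0.0651 and 0 RPKM under the knockout label with activin A, against 38.3 and 41.02 RPKM under the wild-type label, and at 39.96 and 38.5 RPKM under the knockout label with SB431542, against 0.143 and 0.0647 RPKM under the wild-type label. The Trim33 lines thus differ in more than Trim33, and these differences cannot be told apart here. No direction between genotype labels with SB431542 is therefore read as an effect of genotype. The arsenite libraries held 46700000 to 48400000 recovered reads each, and those of the Trim33 series 31100000 to 39400000; the depth behind the Pml values is unknown. In bulk RNA a lower value can stand for fewer cells of a type or for less RNA per cell, and these cannot be told apart here.

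The sequences upstream of the chaperone genes are shown for genes with a heat-shock element match that bear on the arsenite results. Hspb8 and Dnajb1 had windows with 0 matches, and Hspa8, Hsp90aa1 and Hsp90ab1 were among the genes without a window. Each window was the 250 bases before a RefSeq transcription start (GRCm38.p6, the assembly of mm10), and 68 of the 85 genes had one. Both strands were searched for 2 neighbouring units of a heat-shock element, GAANNTTC or TTCNNGAA, each of which is its own reverse complement, and for 3 alternating units with NN between neighbours, which contain the shorter motifs. A gene with several starts was counted once if any window matched. Hspd1 and Hspe1 lie head to head on chromosome 1 (Hspd1 at chr1:55077835-55088243 on the minus strand, Hspe1 at chr1:55088132-55091307 on the plus strand, GENCODE annotation of GRCm38). They share a single stretch with 3-unit matches at chr1:55088053-55088082, which lies inside the annotated span of Hspd1, in an exon of another or alternative transcript. The stretch is given here once for each gene's strand, 5′ to 3′, with the bases of the matches in capitals.
Hspd1: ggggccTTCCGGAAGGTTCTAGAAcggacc
Hspe1: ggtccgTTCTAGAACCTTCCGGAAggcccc
The third gene with 3 units was Dnajb6 (chr5:29735844-29735873, plus strand, in an exon of another or alternative transcript).
Dnajb6: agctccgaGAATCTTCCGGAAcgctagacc

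Hspb1, Dnaja1 and Hsph1, all higher with arsenite below, had 2-unit matches only. The Hspb1 stretch (chr5:135887762-135887869, plus strand, outside annotated exons) holds 2 such matches; those of Dnaja1 (chr4:40722333-40722362, plus strand) and Hsph1 (chr5:149636351-149636380, minus strand) hold 1 each and lie in an exon of another or alternative transcript.
Hspb1: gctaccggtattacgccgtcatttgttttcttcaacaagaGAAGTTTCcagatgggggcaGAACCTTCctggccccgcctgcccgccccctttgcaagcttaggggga
Dnaja1: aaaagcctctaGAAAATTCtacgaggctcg
Hsph1: gggtagaatctTTCTCGAAggctcgagaag
The inducible Hsp70 genes Hspa1a (chr17:34969190-34972156) and Hspa1b (chr17:34956436-34959238) lie on the minus strand with starts 12918 bases apart. Their upstream windows were identical at 247 of 250 bases, and the stretch around the 2-unit match had the same letters in both (chr17:34972213-34972300 for Hspa1a, chr17:34959295-34959382 for Hspa1b).
Hspa1a: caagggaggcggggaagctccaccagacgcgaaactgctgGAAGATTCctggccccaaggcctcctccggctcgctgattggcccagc
Hspa1b: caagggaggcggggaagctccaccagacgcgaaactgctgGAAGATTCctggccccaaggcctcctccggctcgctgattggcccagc

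A 3-unit match was found for 3 of the 68 genes (4.41%), against 0.514% of the 27025 genes in the promoter table. Hspd1 and Hspe1 were both counted from their shared stretch. For a 2-unit match the count was 17 of 68 (25%), against 14.5%. A 2-unit match was present for 8 of 26 genes called higher with arsenite (30.8%), 5 of 15 called lower (33.3%) and 2 of 17 not past the threshold (11.8%). Whether matches go with the response to arsenite was not tested. The 3-unit genes went different ways as deposited: Hspd1 was called higher, and Hspe1 and Dnajb6 lower. The calls of Hspd1 and Hspe1 did not hold under every scaling. Matched stretches are not printed for Dnaja4, Dnajb4 and Dnajc10, called higher, or for Hspb6, Cct5 and Dnajc27, called lower. A match is a run of letters and not a measured binding site.

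By level on the length-scaled RPKM and FPKM scales, 17 of the 85 chaperone genes were among the 500 highest genes of the arsenite table, 17 of the Pml table and 18 of the Trim33 table. In the arsenite table Hsp90ab1, the constitutive Hsp90, ranked 3rd of all genes with 2286 to 2988 RPKM over the 4 libraries. Hsp90aa1, its inducible partner, ranked 15th with 1860 to 1923 RPKM, and Hspa8, the constitutive Hsp70, ranked 45th with 1049 to 1419 RPKM. Hspb1, a small heat-shock gene, ranked 68th with 618 to 1005 RPKM. The ranges of Hsp90ab1, Hsp90aa1, Hspa8 and Hspb1 did not overlap, so their order held in every library of that table. Hspe1 and Hspa9 came next (ranks 116 and 118), with ranges of 418 to 506 and 379 to 538 RPKM that overlapped. The inducible Hsp70 genes stood far lower, at 2.63 to 5.70 RPKM for Hspa1b and 1.18 to 1.71 RPKM for Hspa1a. In the Pml table Hsp90ab1, Hsp90aa1 and Hspa8 again held the first 3 places among the chaperones, and in the Trim33 table the same genes did, with Hspa8 second. At the low end 8 genes were under 1 in all 16 libraries: Cct8l1, Dnajb7, Dnajb8, Dnajc5b, Dnajc5g, Hspb3, Hspb7 and Hspb9. Values of at least 1 in at least 2 libraries let 74 of the 85 genes be tested with arsenite, 72 in the Pml knockout and 72 in the Trim33 table.

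Arsenite changed many chaperone genes by small amounts. Of 74 tested, 30 rose and 19 fell (66.2%), against 67.7% of all 12136 genes tested, of which 40.7% rose and 27% fell. The chaperone count is thus close to the background. The largest rise was 1.10 on the log2 scale and the largest fall -1.02, and the median over the chaperones was 0.12, against 0.08 over all genes. Scaling decides part of the split. With TMM-scaled values, which shift the median of all genes by -0.14, 18 chaperones rose and 27 fell, and among all called genes the share that rose was 41.9% under TMM scaling and 49.0% under quantile scaling, against 60.1% as deposited. Of the 30 rises 18 held under all 3 scalings, and of the 19 falls 14 did. The classes differed, as the plot of the genes by class shows.

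**Figure D1:**
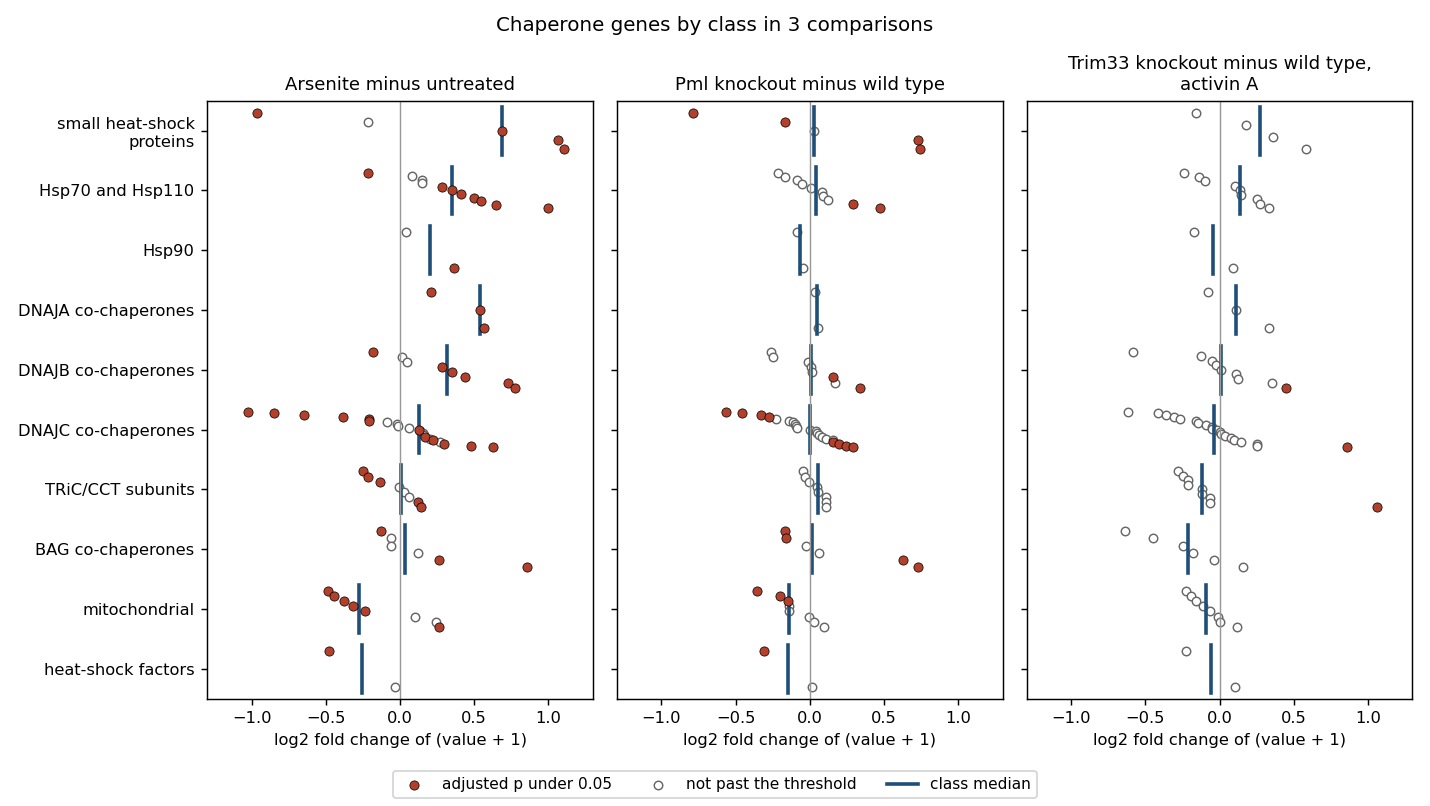
Log2 fold changes of (value + 1) on the horizontal axis for the chaperone genes of each class (rows) in 3 comparisons (panels), filled where the adjusted p was under 0.05 and open otherwise, with a bar at the class median. With arsenite the small heat-shock class median is 0.69 and the mitochondrial one is -0.28. The former counts Hspb2, which passed the filter on low values only with the treated libraries, and would be lower without it. In the Pml knockout the TRiC/CCT and Hsp90 classes hold no filled point, and with Trim33 knockout only 3 points are filled.

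Small heat-shock genes had a class median of 0.69 on the log2 scale with arsenite (5 genes tested, 3 higher and 1 lower). Hspb8, whose product works with BAG3 in the disposal of aggregated proteins, stood at 44.3 and 46.9 RPKM in arsenite-treated cells and at 20.7 and 20.7 RPKM in untreated cells. The treated libraries lay at more than double the level of the untreated ones, which on the log2 scale was a difference of 1.10 ± 0.05 (SE; adjusted p = 1.49e-06 in limma). Hspb1 had 1005 and 998 RPKM with arsenite and 627 and 618 RPKM without (0.69 ± 0.04, adjusted p = 5.20e-06). Hspb1 shares 48.8% of its 50-base words with the pseudogene Hsp25-ps1, so reads can be split between them. Hspb2, a muscle small heat-shock gene, had 3.08 and 3.21 RPKM with arsenite and 0.736 and 1.27 RPKM without, which is low expression. It passed the filter on low values only with the treated libraries, and the class median counts it. Without Hspb2 the middle of the class would fall between Hspb11 (-0.22) and Hspb1 (0.69). Of its exon bases 30.2% overlap Cryab on the other strand. Hspb6, another small heat-shock gene best known from muscle, went the other way, with 3.66 and 3.62 RPKM with arsenite and 8.47 and 7.62 RPKM without (-0.96 ± 0.08, adjusted p = 3.78e-05). Hspb11 had 3.79 and 2.353 RPKM with arsenite and 3.58 and 3.74 RPKM without, and its groups overlapped.

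In the Hsp70 and Hsp110 class 7 of 11 genes tested were called higher with arsenite and 1 lower, with a median of 0.35; the 7 include Hspa13 of the endoplasmic reticulum. Under TMM and under quantile scaling the counts were 6 higher and 1 lower. Hspa8 had 1377 and 1419 RPKM in treated cells and 1052 and 1049 RPKM in untreated cells (0.41 ± 0.04, adjusted p = 9.47e-05). Of its 50-base words 38.6% recur in other annotated genes. In RPKM its group means, 1398 with arsenite and 1050.3 without, lay further apart than those of any other gene of the class. Hsph1, a cytosolic Hsp110, had 107 and 110 RPKM with arsenite and 76.6 and 76.2 RPKM without (0.50 ± 0.04, adjusted p = 2.07e-05). Hspa4, another Hsp110, was the gene that fell, with 161 and 161 RPKM with arsenite and 189.7 and 184 RPKM without (-0.22 ± 0.04, adjusted p = 0.00119), while its paralog Hspa4l rose (0.55 ± 0.09). Of the stress-inducible pair Hspa1b rose and Hspa1a was not called. Hspa1b had 5.27 and 5.70 RPKM with arsenite and 3.72 and 2.63 RPKM without (0.65 ± 0.13, adjusted p = 0.00284). Hspa1a had 1.71 and 1.64 RPKM with arsenite and 1.69 and 1.18 RPKM without, groups that overlap (0.14 ± 0.12, adjusted p = 0.323; -0.11 with quantile normalization). The 50-base words of Hspa1b recur in Hspa1a for 62.3%, so how reads were divided between them is uncertain. Hspa12b, a distant relative known from endothelium, had 1.56 and 1.44 RPKM with arsenite and 0.196 and 0.313 RPKM without, and was tested only because the treated libraries reached 1.

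The Hsp90 pair separated. Hsp90ab1 had 2966 and 2988 RPKM with arsenite and 2338 and 2286 RPKM without (0.36 ± 0.05, adjusted p = 3.31e-04). Hsp90aa1 had 1923 and 1901 RPKM with arsenite and 1865 and 1860 RPKM without (0.04 ± 0.04, adjusted p = 0.465). The sign of Hsp90aa1 depends on scaling: TMM-scaled values gave -0.13 (adjusted p = 0.0855), whereas quantile normalization gave 0.33 (adjusted p = 4.6e-05). Of its 50-base words 47.5% recur in other annotated genes. A ratio within a library does not depend on a scaling factor, though quantile normalization can change it. As deposited, Hsp90ab1 over Hsp90aa1 was 1.54 and 1.57 with arsenite and 1.25 and 1.23 without.

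**Figure D2:**
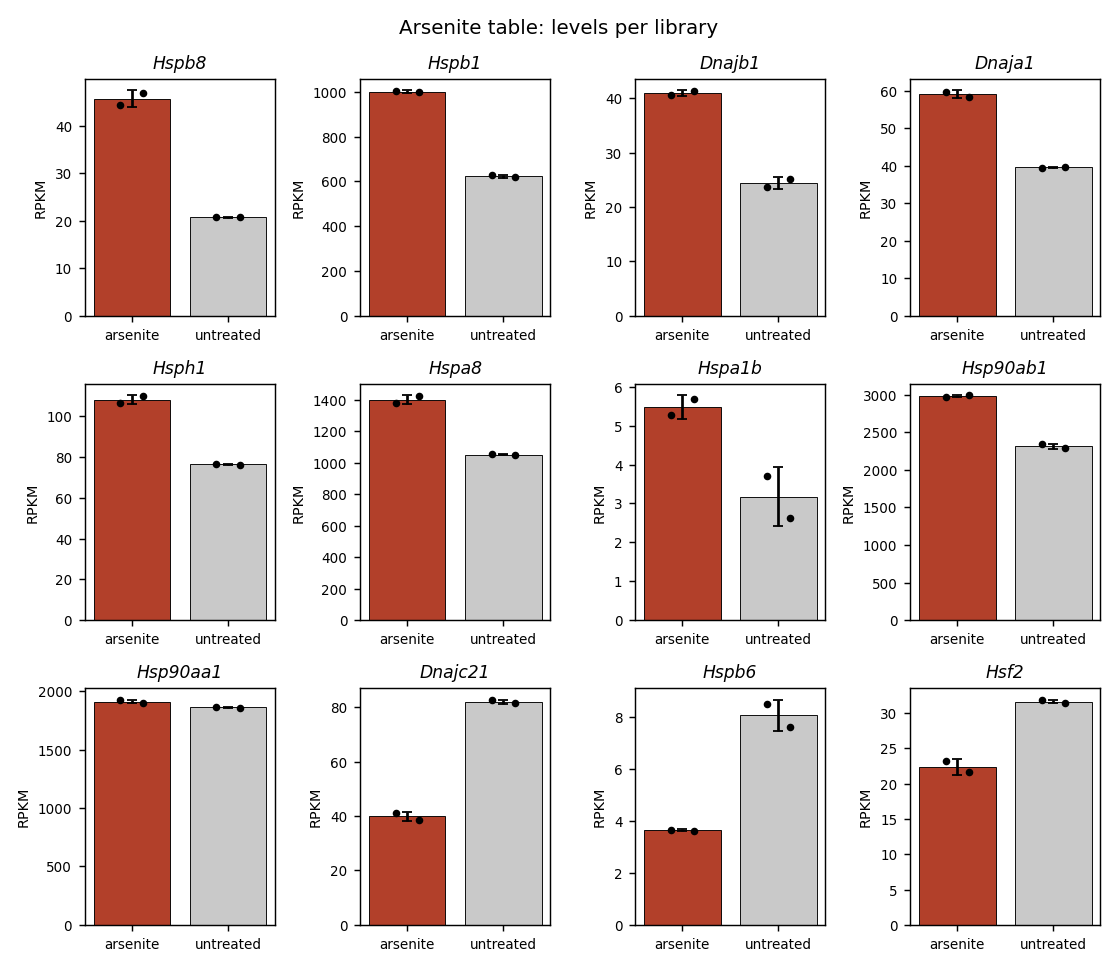
RPKM (vertical axes, from 0) of 12 chaperone genes in the arsenite table; dots are the 2 libraries of a group, bars the mean and error lines the SD. Hspb8, Hspb1, Dnajb1, Dnaja1, Hsph1, Hspa8, Hspa1b and Hsp90ab1 lie higher in arsenite-treated cells, Hsp90aa1 lies close in both, and Dnajc21, Hspb6 and Hsf2 lie lower with arsenite.

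Among J-domain co-chaperones the A and B families had more rises than falls as deposited, and the C family had as many of each. Over all genes tested rises were also more frequent (40.7%) than falls (27%). All 3 DNAJA genes were called higher (median 0.54), of which Dnaja2 was lost with TMM-scaled values (0.04, adjusted p = 0.4004). Dnaja1, a main partner of cytosolic Hsp70, had 59.9 and 58.5 RPKM with arsenite and 39.5 and 39.7 RPKM without (0.57 ± 0.04, adjusted p = 1.44e-05). Of 8 DNAJB genes 5 rose and 1 fell (median 0.32), and under either other scaling 3 rose and 1 fell. One of the 5, Dnajb3, had 1.93 and 1.44 RPKM with arsenite and 0.405 and 0.740 RPKM without, and was tested only because the treated libraries reached 1. Dnajb1, the classic stress-inducible Hsp40, had 40.6 and 41.3 RPKM with arsenite and 23.6 and 25.1 RPKM without (0.73 ± 0.05, adjusted p = 1.13e-05). Dnajb6, whose product holds back polyglutamine aggregation, was the one that fell (-0.18 ± 0.05, adjusted p = 0.00938).

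In the DNAJC family 6 genes rose and 6 fell of 21 tested, and the median was 0.13 as deposited, -0.03 under TMM scaling and -0.07 under quantile scaling. Under TMM scaling 2 rose and 9 fell, and under quantile scaling 5 rose and 6 fell. Members of the family have J domains but varied tasks. Dnajc9, a histone chaperone, had 66.2 and 66.9 RPKM with arsenite and 43.4 and 42.3 RPKM without (0.62 ± 0.04, adjusted p = 8.95e-06). Dnajc21, a cofactor in the making of the large ribosomal subunit, had 41.1 and 38.6 RPKM with arsenite and 82.5 and 81.5 RPKM without (-1.02 ± 0.04, adjusted p = 1.52e-06), the largest fall among the chaperones. Dnajc6, the clathrin-uncoating factor auxilin, fell to 3.43 and 4.09 RPKM with arsenite, against 7.57 and 7.59 RPKM without. Dnajc17, linked to splicing, fell to 12.3 and 13.2 RPKM, against 21.3 and 19.8 RPKM in untreated cells, and Dnajc7, which bridges Hsp70 and Hsp90, fell by 0.38.

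Mitochondrial chaperone genes moved mainly downward with arsenite as deposited, with 5 of 8 called lower and 1 higher (median -0.28). Over all genes tested 27% were called lower and 40.7% higher. The median was -0.44 under TMM scaling, with 0 higher and 5 lower, and -0.14 under quantile scaling, with 2 higher and 4 lower. Hspa9, the mitochondrial Hsp70, had 389 and 379 RPKM with arsenite and 538 and 537 RPKM without (-0.48 ± 0.04, adjusted p = 2.42e-05). Its counterpart in the cytosol, Hspa8, rose, so Hspa9 over Hspa8 was 0.283 and 0.267 with arsenite and 0.512 and 0.512 without. Dnajc19 and Dnajc15, J proteins of the import motor, fell by 0.45 and 0.37, and Dnajc11, a protein of mitochondrial membrane organisation, by 0.32. For Dnajc19 the arsenite libraries differed (9.60 and 7.07 RPKM, against 11.03 and 12.2 RPKM in untreated cells).

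Hspd1 and Hspe1, whose products work together and whose genes share the stretch printed above, went opposite ways. Hspd1 had 299.6 and 297 RPKM with arsenite and 252 and 245 RPKM without (0.26 ± 0.04, adjusted p = 4.35e-04). Hspe1 had 431 and 418 RPKM with arsenite and 496 and 506 RPKM without (-0.24 ± 0.04, adjusted p = 9.61e-04). Neither call held under every scaling: for Hspd1 the TMM-scaled values gave 0.10 (adjusted p = 0.0769), and for Hspe1 quantile normalization gave -0.01 (adjusted p = 0.829). Their ratio within a library is free of a scaling factor such as that of TMM, though quantile normalization can change it. As deposited, Hspd1 over Hspe1 was 0.695 and 0.710 with arsenite and 0.507 and 0.484 without. For each of the 3 ratios plotted, the exact two-sided permutation test gave p = 0.333, the smallest that 2 libraries against 2 can give. Words of 50 bases shared with other annotated genes make up 39.7% of Hspd1 and 18.4% of Hspe1. The genes also overlap by 112 exon bases on opposite strands, and whether counting used strand is not stated.

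**Figure D3:**
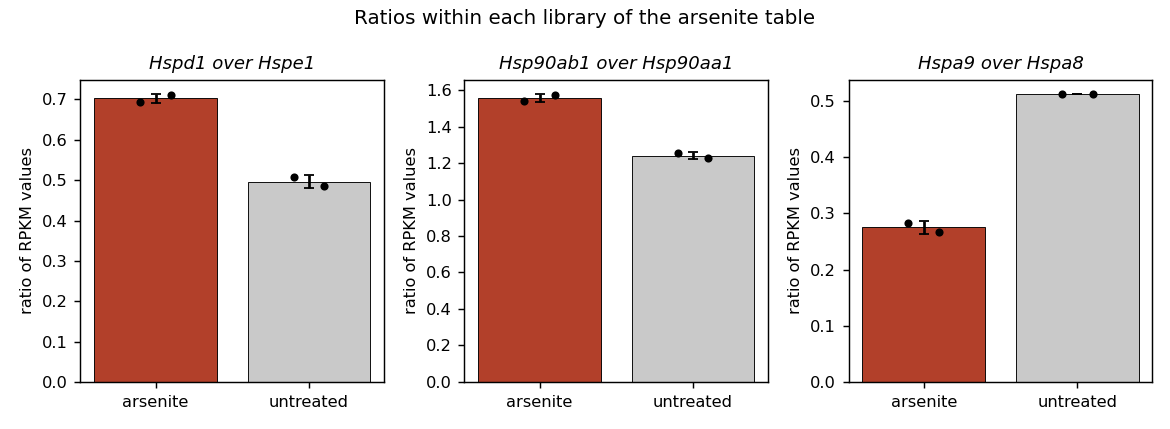
Ratios of RPKM values within each library (vertical axes, from 0), with arsenite left of untreated; dots are the 2 libraries of a group, bars the mean and error lines the SD. Hspd1 over Hspe1 and Hsp90ab1 over Hsp90aa1 are higher with arsenite in both libraries, and Hspa9 over Hspa8 is lower in both.

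TRiC/CCT subunits stayed near their untreated level with arsenite, and their direction rests on scaling. As deposited 2 of 8 tested rose (Cct7 and Cct8) and 3 fell (Cct4, Cct5 and Cct6a), with TMM-scaled values 0 rose and 5 fell, and with quantile normalization 5 rose and 0 fell. The subunits ran from -0.25 for Cct4 to 0.14 for Cct7. Their summed level was 2290 and 2220 RPKM with arsenite, against 2316 and 2339 RPKM without. Tcp1, the founding subunit, had 192 and 189 RPKM with arsenite and 187 and 197 RPKM without. As deposited, Cct7 had 231 and 229 RPKM with arsenite and 209 and 209 RPKM without, and Cct4 had 309.9 and 286 RPKM with arsenite and 346 and 361 RPKM without.

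With arsenite 2 of 6 BAG genes rose and 1 fell, and 1 of the 2 heat-shock factors fell. Bag2, whose product inhibits the ubiquitin ligase CHIP, had 7.67 and 7.92 RPKM with arsenite and 3.51 and 4.26 RPKM without (0.85 ± 0.09, adjusted p = 1.39e-04). Bag5 rose by 0.26 and Bag1 fell by 0.13, but under TMM scaling Bag5 was lost (adjusted p = 0.168) and under quantile scaling both were (adjusted p = 0.0864 for Bag5 and 0.1105 for Bag1). Bag3, the stress-inducible BAG gene, had 16.3 and 16.1 RPKM with arsenite and 15.2 and 14.5 RPKM without (0.12 ± 0.05, adjusted p = 0.0851). Hsf1 had 29.0 and 28.1 RPKM with arsenite and 29.1 and 29.4 RPKM without (adjusted p = 0.519, and -0.19 with adjusted p = 0.00657 with TMM-scaled values). Hsf2, a second heat-shock factor, fell to 23.2 and 21.6 RPKM, against 31.8 and 31.4 RPKM in untreated cells (-0.48 ± 0.05, adjusted p = 1.14e-04). These are transcript levels and do not show the activity of either factor.

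Genes around the chaperone system outside the symbol rule also split with arsenite. Of 25 tested co-chaperone genes 9 rose and 11 fell (median -0.06). Serpinh1, the collagen chaperone HSP47, rose by 0.58, and Ahsa1, which stimulates the Hsp90 ATPase, by 0.48, while the prefoldin subunit gene Pfdn2 fell by 0.62. Of 16 endoplasmic reticulum chaperone genes 2 rose and 9 fell (median -0.21). Hyou1, an Hsp110 of that compartment, had 39.96 and 41.7 RPKM with arsenite and 66.2 and 66.8 RPKM without, whereas Pdia3, a disulfide isomerase, rose by 0.42. Marker genes of cell types moved in the same comparison: 7 of 8 ES cell markers were lower and 1 higher, their summed level being 2723 to 2837 RPKM with arsenite and 5178 to 5248 RPKM without. Of 8 tested trophectoderm markers 7 were higher and 1 lower (sum 171 to 174 RPKM with arsenite, 96.4 to 98.0 RPKM without), and no marker was at 0 throughout. Of 6 tested fibroblast and smooth muscle markers 5 were higher and 1 lower (sum 167 to 169 RPKM with arsenite, 69.95 to 70.8 RPKM without). Their part in the chaperone results was not tested.

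The Pml comparison asked which genes depend on PML. Of 72 chaperone genes tested 12 rose and 12 fell in the knockout (33.3%), against 35.5% of all 11648 genes tested, of which 16.6% rose and 18.9% fell, so the chaperones stood near the background. The largest rise was 0.75 and the largest fall -0.79 on the log2 scale. The abundant core of the system was not called. Hspa8 had 1581 and 1655 FPKM in knockout and 1570.1 and 1656 FPKM in wild type, Hsp90ab1 2763 and 2817 FPKM in knockout and 2817 and 2943 FPKM in wild type, and Dnajb1 26.7 and 26.3 FPKM in knockout and 26.6 and 26.2 FPKM in wild type. None of 8 TRiC/CCT genes and neither Hsp90 gene passed the threshold in limma. At an unadjusted p under 0.05, 29 of the 72 genes passed in place of 24. With quantile normalization Tcp1 (0.13, adjusted p = 0.0360), Cct4 (0.13, adjusted p = 0.0427) and Hsp90ab1 (-0.11, adjusted p = 0.0436) did pass, so these classes are not shown to be unchanged.

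The 12 rises in the Pml knockout were 4 DNAJC genes and 2 each of the BAG, small heat-shock, DNAJB and Hsp70 and Hsp110 classes. The 4 largest were in the BAG and small heat-shock classes. The small heat-shock class here counts Hspb11, an intraflagellar transport gene, and the Hsp70 and Hsp110 class counts Hspa13 of the endoplasmic reticulum. Bag3 had 15.6 and 15.4 FPKM in knockout and 9.64 and 9.67 FPKM in wild type (0.63 ± 0.07, adjusted p = 2.48e-04). Bag2 had 6.39 and 7.05 FPKM in knockout and 3.84 and 3.47 FPKM in wild type (0.73 ± 0.10, adjusted p = 6.59e-04). The replicates of both genes lay much closer together than the groups. Of the same class Bag1 fell by 0.16 and Bag6, which handles tail-anchored proteins, by 0.17, calls lost with quantile normalization (adjusted p = 0.104 and 0.125). Hspb8, the partner of BAG3, did not pass, with 13.9 and 12.2 FPKM in knockout and 12.9 and 12.5 FPKM in wild type. Hspb2 had 6.89 and 8.99 FPKM in knockout and 5.03 and 3.65 FPKM in wild type (0.75 ± 0.15, adjusted p = 0.00558), and Hspb11 8.25 and 10.6 FPKM in knockout and 4.56 and 6.06 FPKM in wild type (0.73 ± 0.14, adjusted p = 0.00488). Both calls were lost with no filter on low values (adjusted p = 0.0753 for Hspb2 and 0.0706 for Hspb11). Further rises were smaller, such as Hspa4l (0.47 ± 0.12), Dnajb5 (0.34 ± 0.10) and Dnajc9 (0.29 ± 0.06). Hspa4l reached only 1.67 and 1.64 FPKM in knockout, and it passed the filter on low values only with those libraries. With no filter Hspa4l and Dnajb5 were lost (adjusted p = 0.0542 and 0.119). Hspa4l was lost with quantile normalization (adjusted p = 0.0671) and when the second wild-type library was left out (adjusted p = 0.0794), and Dnajb5 was lost without the same library (adjusted p = 0.108).

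**Figure D4:**
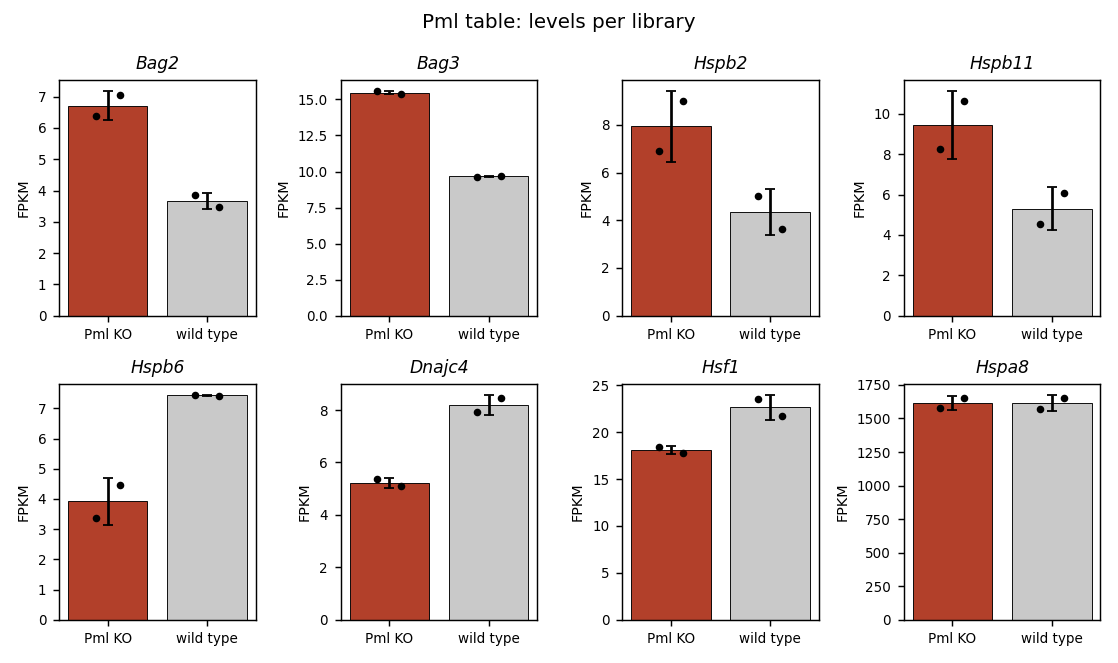
FPKM (vertical axes, from 0) of 8 chaperone genes in the Pml table, with Pml knockout left of wild type; dots are the 2 libraries of a group, bars the mean and error lines the SD. Bag2, Bag3, Hspb2 and Hspb11 lie higher in the knockout, Hspb6, Dnajc4 and Hsf1 lie lower, and Hspa8 overlaps between the groups.

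Falls in the Pml knockout included the transcription factor of the heat-shock response. Hsf1 had 18.4 and 17.8 FPKM in knockout and 23.6 and 21.7 FPKM in wild type (-0.31 ± 0.07, adjusted p = 0.00845), while Hsf2 overlapped between the groups. Hspb6 had 3.37 and 4.47 FPKM in knockout and 7.43 and 7.42 FPKM in wild type (-0.79 ± 0.12, adjusted p = 0.00123). Hspb1 had 723 and 708 FPKM in knockout and 823 and 785 FPKM in wild type (-0.17 ± 0.05, adjusted p = 0.0233), a call lost with no filter on low values (adjusted p = 0.0737), without the first wild-type library (adjusted p = 0.0629) and without either knockout library (adjusted p = 0.06659 and 0.1406). Dnajc4, a J-domain gene, had 5.35 and 5.10 FPKM in knockout and 7.94 and 8.46 FPKM in wild type (-0.56 ± 0.08, adjusted p = 0.00134). In the mitochondrial class 0 of 8 rose and 3 fell, namely Dnajc19 (-0.36 ± 0.06), Dnaja3 (-0.20 ± 0.05) and Dnajc15 (-0.15 ± 0.05). With quantile normalization Dnaja3 (adjusted p = 0.0502) and Dnajc15 (adjusted p = 0.157) were lost, and Dnaja3 was also lost without either knockout library (adjusted p = 0.06256 and 0.1162). Hspd1 was at 736 and 740 FPKM in knockout and 777 and 852 FPKM in wild type, and missed the threshold with adjusted p = 0.0728. Hspd1 over Hspe1 was 0.789 and 0.855 in knockout and 0.805 and 0.837 in wild type, so their ratio overlapped between these groups.

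Markers of other cell types moved with the Pml genotype. All 9 tested trophectoderm markers were higher in knockout (sum 747 to 759 FPKM in knockout, 67.0 to 72.0 FPKM in wild type), and of 9 fibroblast and smooth muscle markers 8 were higher and 1 lower (sum 557 to 588 FPKM in knockout, 113 to 114 FPKM in wild type). Muscle markers summed to 26.4 to 26.6 FPKM in knockout and 6.47 to 7.15 FPKM in wild type, with 2 of 3 tested higher and 1 lower. Of 8 ES cell markers 3 were lower (sum 7693 to 7948 FPKM in knockout, 8074 to 8101 FPKM in wild type). Serpinh1, the collagen chaperone outside the symbol rule, moved beside them, with 77.8 and 77.7 FPKM in knockout and 33.9 and 30.3 FPKM in wild type (1.25 ± 0.06). The part of these markers in the chaperone results was not tested. Eif2s3y was at 1.10 and 0.753 FPKM in knockout and 16.2 and 20.6 FPKM in wild type, so another difference between the lines cannot be told apart from the knockout.

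Beside each other, the Pml knockout and arsenite called 17 of the same chaperone genes, which is 34.7% of the genes called with arsenite and 70.8% of those called in the knockout; over all genes the shares were 35.1% and 69.8%. Of these 12 moved in the same direction (70.6%), against 70.8% of the 2883 genes called in both among all genes. Same-direction rises were Bag2, Dnajb5, Dnajc9, Hspa13, Hspa4l and Hspb2, and same-direction falls were Bag1, Dnajc15, Dnajc17, Dnajc19, Dnajc21 and Hspb6. Opposite directions were found for Dnajc4 and Hspb1, higher with arsenite and lower in the knockout, and for Dnajb6, Dnajc5 and Dnajc7, lower with arsenite and higher in the knockout. The tables hold different control libraries. Among the rises with arsenite, Hspb8, Dnajb1, Dnaja1, Hsph1 and Hspa8 were not called in the Pml knockout. Their log2 differences there ran from 0.005 for Hspa8 to 0.12 for Hsph1. Other rises with arsenite of like or larger size were called there, namely Hspb2, Bag2, Dnajc9 and Hspa4l as higher and Hspb1 as lower. Of these, Hspb2 with arsenite and Hspa4l in the knockout passed the filter on low values only through libraries where they were high. With no filter the limma calls in the knockout were lost for Hspb2 (adjusted p = 0.0753), Hspa4l (adjusted p = 0.0542) and Hspb1 (adjusted p = 0.0737).

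With activin A, Trim33 knockout against wild type called 3 of 72 chaperone genes higher and 0 lower (4.17%), against 9.43% of all 11914 genes tested (6.61% higher and 2.82% lower), and 10 chaperones had an unadjusted p under 0.05. Cct6b, a TRiC/CCT subunit known from testis, had 1.72 and 2.04 RPKM in knockout and 0.273 and 0.496 RPKM in wild type (1.06 ± 0.17, adjusted p = 0.00897). It passed the filter on low values only through libraries where it was high. Dnajc4 had 7.48 and 7.82 RPKM in knockout and 3.26 and 4.35 RPKM in wild type (0.86 ± 0.16, adjusted p = 0.0168). Dnajb1 had 26.3 and 26.3 RPKM in knockout and 19.2 and 18.9 RPKM in wild type (0.45 ± 0.12, adjusted p = 0.0486). Leaving out a library left 0 or 1 of these calls, Cct6b holding without the first knockout library or the second wild-type library and no gene holding without the others. Dnajb1 was also lost with TMM-scaled values (adjusted p = 0.0737). Bag5, which acts on Hsp70 and CHIP, had 10.97 and 11.2 RPKM in knockout and 15.5 and 15.4 RPKM in wild type, and missed narrowly (-0.45 ± 0.12, adjusted p = 0.0516). It did pass under the other scalings (adjusted p = 0.0361 for TMM and 0.0413 for quantile). The abundant chaperones were not called: Hspa8 had 2529 and 2478 RPKM in knockout and 2426 and 2110.3 RPKM in wild type. Neural markers summed to 135 to 145 RPKM in knockout and 76.8 to 77.0 RPKM in wild type, with 1 of 5 higher and 2 lower, and germ cell markers to 39.1 to 58.1 RPKM in knockout and 35.9 to 40.4 RPKM in wild type, with 2 of 5 higher and 0 lower. Of the other marker lists, 1 of 8 ES cell and 1 of 9 trophectoderm genes were higher, 1 of 8 fibroblast and smooth muscle genes was higher and 1 lower, and 1 of 3 muscle genes was lower. The part of these markers in the chaperone results was not tested.

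Activin A against SB431542, averaged over both genotype labels so that it does not turn on which label a library carries, called 0 of 72 chaperone genes in limma, and 0 passed an unadjusted p under 0.05. The same contrast called 0.109% of all genes tested. Between genotype labels with SB431542, 0 chaperones were higher and 1 lower, against 9.56% of all genes called (3.01% higher and 6.55% lower), and 12 chaperones had an unadjusted p under 0.05. That gene was Cct6b, with 0.534 and 0.461 RPKM in the libraries labelled knockout and 1.61 and 1.42 RPKM in those labelled wild type (-0.75 ± 0.17, adjusted p = 0.0300), and it was lost when any of those 4 libraries was left out. Dnajb1 had 17.4 and 18.03 RPKM in the libraries labelled knockout and 22.8 and 25.7 RPKM in those labelled wild type. With SB431542 the libraries labelled wild type held the higher values of Cct6b and Dnajb1 and the lower values of Trim33, and with activin A the libraries labelled knockout did. The interaction of label and treatment, which tests that difference by label, was past the threshold for 12 of 72 chaperone genes (16.7%). Of these 4 were positive and 8 negative. Among all genes tested 26.3% were past it (16.1% positive and 10.1% negative). Taken by Trim33 level, this contrast adds the low-minus-high differences under both treatments, so it does not show dependence on treatment. Hspb1 varied between libraries of a group in this table, with 303 and 239.7 RPKM under the knockout label with activin A, 244.5 and 131 RPKM in wild type with activin A, 288 and 135 RPKM in those labelled knockout with SB431542 and 263 and 231 RPKM in those labelled wild type with SB431542.

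**Figure D5:**
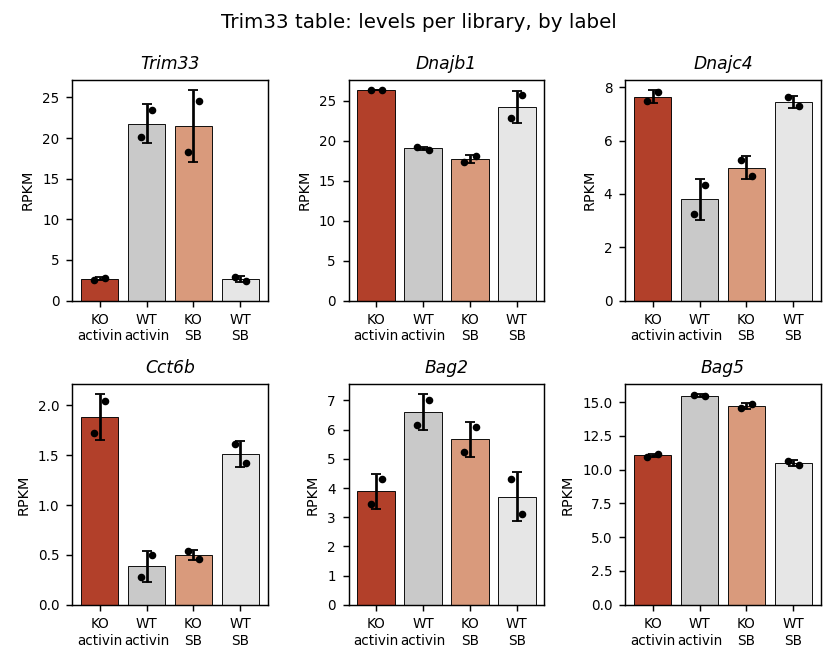
RPKM (vertical axes, from 0) of Trim33 and 5 chaperone genes in the 4 groups of the Trim33 table, named by their labels (KO, knockout; WT, wild type; SB, SB431542); dots are the 2 libraries of a group, bars the mean and error lines the SD. Trim33 is low in the libraries labelled KO with activin A and WT with SB431542; Dnajb1, Dnajc4 and Cct6b are high in those groups, and Bag2 and Bag5 are low.

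By class, the counts of called genes are set against 67.7% of all genes called with arsenite, 35.5% in the Pml knockout and 9.43% in the Trim33 knockout with activin A. TRiC/CCT had 5 of 8 genes called with arsenite, 0 of 8 in the Pml knockout and 1 of 9 in the Trim33 knockout with activin A, where that gene, Cct6b, passed the filter only through libraries in which it was high. In the same order of comparisons, Hsp70 and Hsp110 had 8 of 11, 2 of 10 and 0 of 9, the mitochondrial class 6 of 8, 3 of 8 and 0 of 8, and the BAG class 3 of 6, 4 of 6 and 0 of 6. The small heat-shock class had 4 of 5 genes called with arsenite, 4 of 5 in the Pml knockout and 0 of 4 in the Trim33 knockout. Hspb2 and Hspa12b with arsenite, and Hspa4l in the Pml knockout, also passed the filter only through libraries in which they were high. These counts include Hspa13 in the Hsp70 and Hsp110 class and Hspb11 in the small heat-shock class, whose products sit elsewhere. The tables differ in spread and in the share of all genes called, and the differences between perturbations were not tested.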

How the data were processed

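Libraries came from total RNA by a TruSeq RNA kit, per the labels' protocols. Named in the submitters' processing notes, with no roles, are Bowtie2 2.3.3, featureCounts 2.0.1, SAMtools 1.9, FastQC 0.11.5, DESeq2 and the build mm10; strand use in counting was not stated. The authors deposited FPKM values (fragments scaled for length and library size) for the Pml table and RPKM values for the arsenite table. No unit is named for the Trim33 values; as deposited they have the steps of RPKM, since value times length gave whole reads within 0.05 for 92.8% to 97.2% of low values of single-exon genes. Of the Pml values, 29.5% to 37.8% did so. The 3 tables were normalised separately and tested separately.

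After 27 date-like names per table were dropped, genes that reached 1 in 2 or more libraries of a table were tested on log2(value + 1), which understates changes of low genes, with limma 3.58.1 (R 4.3.3; intensity trend, two-sided, Benjamini-Hochberg over all genes tested, calls at adjusted p under 0.05). Fold changes are given with their SE. The 8 Trim33-table libraries were fitted together as 4 group means. The untreated columns of the arsenite table are numbered under a letter that their titles lack, so they were tied to the group and not to single titles. The fits were tested on simulated data. Python 3.11.15 and matplotlib 3.10.9 served for tables, sequence matches and figures. Sequences are from RefSeq (GRCm38.p6) and coordinates from GENCODE (84 of 85 genes). Shared 50-base words were counted over annotated exons.

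The genes, classes and lists were chosen with earlier results of these data known. Named genes are 17 core genes (Hsf1, Hsf2, Hspa1a, Hspa1b, Hspa8, Hsph1, Hsp90aa1, Hsp90ab1, Dnajb1, Dnaja1, Hspb1, Hspb8, Hspa9, Hspd1, Hspe1, Tcp1, Bag3), up to 8 largest rises and 8 largest falls per comparison with groups apart, and up to 2 called genes per class with the smallest p. Others, such as Bag5, Hspa4, Hspb11 and Dnajb6 outside their comparison, were named after their values were seen. Alternatives were another pseudocount (0.1), no filter, TMM and quantile scaling, a replicate block, each library left out and the 4 libraries of a treatment alone.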

Additional observations from a re-analysis of the deposited data

Results flagged for a closer look

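The difference between genotype labels was itself different under activin A and under SB431542 for 12 of 72 chaperone genes by limma's interaction contrast, against 26.3% of all genes tested. It is the knockout-minus-wild-type log2 difference with activin A minus that with SB431542, and in the SB431542 libraries Trim33 goes against the label. Taken by Trim33 level, the contrast therefore adds the low-minus-high differences under both treatments. Its sizes are those of a sum, and it does not show a difference that depends on treatment. The contrast was positive for Cct6b (1.81), Dnajc4 (1.36), Hspb11 (1.02) and Dnajb1 (0.88). It was negative for Dnajc6 (-1.23), Bag2 (-1.15), Dnajb3 (-1.09), Bag5 (-0.90), Dnajc9 (-0.72), Dnajc5 (-0.65), Cct8 (-0.53) and Dnajc2 (-0.50). Bag2 had 3.46 and 4.32 RPKM in knockout and 6.16 and 7.03 RPKM in wild type with activin A, and 5.24 and 6.09 RPKM in the libraries labelled knockout and 4.30 and 3.11 RPKM in those labelled wild type with SB431542. All 12 calls held under the TMM and quantile scalings. When 1 library was left out, 3 to 5 genes were positive and 2 to 8 negative.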

How the results depend on the processing

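Named genes not past the threshold changed sign in some settings. With arsenite, TMM-scaled values gave -0.0351 for Bag3 and -0.13 for Hsp90aa1, and quantile normalization gave -0.11 for Hspa1a and 0.12 for Tcp1. Leaving out 1 library gave -0.0054 to 0.2954 for Hspa1a and -0.0482 to 0.03 for Tcp1. In the Pml comparison quantile normalization gave Hspa1a -0.0663, Hspa8 -0.0263 and Hspa9 0.0367. Leaving out 1 Pml library gave -0.0092 to 0.1234 for Dnaja1, -0.0058 to 0.0178 for Dnajb1, -0.0837 to 0.1136 for Hsf2, -0.0095 to 0.181 for Hspa1a, -0.0334 to 0.0433 for Hspa8, -0.0422 to 0.0304 for Hspa9 and -0.0572 to 0.1157 for Hspb8. With no filter on low values 6 chaperones rose and 7 fell in the Pml knockout in place of 12 and 12, and with 1 library left out 7 to 14 rose and 7 to 12 fell. With arsenite 18 rose with TMM-scaled values in place of 30, and without 1 library 22 to 27 rose and 16 to 18 fell. Those fits leave a group with 1 library, assumed to vary like the others.

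In the Trim33 knockout with activin A, where 3 rose and 0 fell, the number that fell was 1 with no filter, 2 with TMM-scaled values, 3 with quantile normalization and 3 in the 4 activin A libraries alone; without 1 library 0 to 1 rose. Between labels with SB431542, where 0 were higher and 1 lower, 1 was higher with pseudocount 0.1, with no filter, and under TMM or quantile scaling. There 2 were lower with no filter, 0 with quantile normalization, 0 in the 4 SB431542 libraries alone and 0 without any 1 library. The interaction had 2 to 8 negative calls without 1 library. The cause was not tested.

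The correlation over genes of same-numbered libraries' deviations was 0.023 in the Pml table, -0.036 in the arsenite table and, between groups of the Trim33 table, 0.191, 0.207, 0.368 and 0.602 in 4 pairs and -0.14 and -0.137 in 2. With those 2 pairs below 0, and nothing in the labels tying the numbers to a shared batch, the numbers were not taken to pair the samples. A replicate block gave 3 lower chaperones in the Trim33 knockout with activin A, and 2 higher and 2 lower between labels with SB431542. With crossed numbers, chosen after seeing the data, 1 was higher and 3 lower between labels with SB431542. In the Pml table Hspd1 passed with the block (adjusted p = 0.04263). For arsenite a block on the numbers of the column names, added after seeing the data, gave 30 higher and 18 lower chaperones. Genes of a few RPKM rest on few reads, and the Pml table's depth is unknown.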
